A study of Mus musculus with 11 samples.

Results

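The cytosolic ribosomal proteins are the proteins that, with ribosomal RNA, build the cytoplasmic ribosome. Their rows were found on a spotted mouse array by gene symbol: Rpl or Rps followed by a digit, Rplp0, Rplp1, Rplp2 and Rpsa, with the Rps6k kinases left out. This gave 64 genes of the 13406 with a symbol on the array, 40 of the large subunit, 21 of the small subunit and 3 of the stalk, on 80 of its 17280 rows. Each of 63 genes had 1 row and Rpl5 had 17. Of the 64 genes 7 are paralogs or like genes of other members (Rpl3l, Rpl7l1, Rpl22l1, Rpl36al, Rpl39l, Rps4l and Rps27l).

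The arrays measured liver RNA of C57/BL/6J mice against a universal mouse reference RNA, which was the same for all arrays. Control mice ate rodent chow for 10 weeks, with 6.5% fat, 49% carbohydrate, 23% protein and 3.5 kcal per g. High-fat mice ate for 10 weeks a diet with 4.53 kcal per g, 42.16% fat, 15.02% protein and 42.81% carbohydrate (shares as labelled, by weight or energy not said), and fasted mice ate that same diet and then had no food for the last 48 h. The fasted group thus has no counterpart on chow, and the diets differ in carbohydrate and protein as well as in fat. There were 4 control, 4 high-fat and 3 fasted arrays, each from 1 mouse, out of 9, 5 and 4 mice in the study's groups. No allele or transgene is named for any group, and the sources used here do not give age or sex.

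Ribosomal proteins of the large subunit surround the site of peptide bond formation and the exit tunnel, those of the small subunit surround the decoding site, and the stalk proteins of the large subunit bring translation factors to the ribosome. Most of their mRNAs begin with a run of pyrimidines, the 5′ terminal oligopyrimidine tract, through which the kinase complex mTORC1 adjusts their translation to nutrients and insulin. In liver, ribosomes make the plasma proteins, and fasting is known to lower protein synthesis in this organ. An array of mRNA levels does not measure that control of translation.

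The letters CTTTC occur in many such tracts, and were searched for on the gene's own strand and on the other, from 50 bases before to 50 bases after the RefSeq start of each gene (GRCm38.p6). RefSeq promoter entries were matched for 54 of the 64 genes and for 11 of the 13 that could be tested. On the gene's strand CTTTC was present in 28 of the 54 (51.9%) and in 6 of the 11 (54.5%), against 14.6% of 27025 genes. On the other strand it was present in 14.8% of the 54 genes, 0 of the 11 and 13.8% of all genes. The 30 bases around the first match in these 6 genes show where these letters lie, and capitals mark that match. The Rpl35 bases hold a further CTTTC, left in small letters. The first base of the marked CTTTC lies 11 bases before the annotated start in Rpl13, 5 before it in Rpl35, and 9, 37, 43 and 22 after it in Rpl13a, Rpl39, Rps19 and Rpsa. A match describes these letters, not the tract itself, a transcription start or a regulated site.
Rpl13, chr8:123102327-123102356, plus strand: gacgtcacttccCTTTCgcctgattttgat
Rpl13a, chr7:45128719-45128748, minus strand: caagacctcctcCTTTCccaggcggctgcc
Rpl35, chr2:39005119-39005148, minus strand: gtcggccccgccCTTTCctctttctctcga
Rpl39, chrX:37085173-37085202, minus strand: gttcttccggtcccggcCTTTCtcttctcc
Rps19, chr7:24884612-24884641, plus strand: cgcccgggaaaccccgtcgttccCTTTCcc
Rpsa, chr9:120127776-120127805, plus strand: cggccgcccgtcCTTTCgcgctacccgggg

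High-fat array 4 had a Pearson r between -0.03 and 0.01 with each of the other arrays, which had r between 0.69 and 0.94 with one another, and it was left out of the results unless it is named. Every value given here is the deposited log ratio of liver over reference, read as log2 because the sources used here do not give the base of the logarithm, after subtraction of its array's median. With another base each change would be off by 1 constant factor and each fold would differ, while the tests would stay as they are. Spot brightness was not used, so how far each row stood above background is unknown, and precision is limited by how many arrays there are. The labelled tissue was borne out by hepatocyte markers: all 10 that could be tested lay above the array median in all 3 groups.

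Most ribosomal protein rows were empty. Each of the 10 arrays held a value for 12 to 25 of the 80 rows (15.0 to 31.25%), against 22.4 to 32.2% of all rows. No value on these 10 arrays was present for 36 of the 64 genes, 26 of the large subunit, 9 of the small and Rplp2 of the stalk, and all 17 rows of Rpl5 were among the empty ones. A further 15 genes had values but too few for a test: Rpl3, Rpl7l1, Rpl10, Rpl19, Rpl21, Rpl23 and Rpl37a of the large subunit, Rps4l, Rps4x, Rps6, Rps10, Rps24, Rps27 and Rps27l of the small, and Rplp0 of the stalk. The other 13 genes, 1 row each, had at least 2 values in every group and were tested (16.25% of the ribosomal protein rows, against 20.87% of all rows). The 17 empty Rpl5 rows lower the 16.25% and the shares of these rows per array, which therefore do not describe the other genes. The 13 tested genes are Rpl11, Rpl13, Rpl13a, Rpl14, Rpl35, Rpl36 and Rpl39, then Rps2, Rps3, Rps15, Rps19 and Rpsa, and the stalk protein Rplp1. Of these, 8 had a value on all 10 arrays. What is said of tested members therefore covers 13 of 64 genes and not the family. Ribosomal protein genes also have many near-identical processed copies in the genome, so a row may bind RNA from a copy or a paralog, and the source of a single row's level is uncertain.

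**Figure D1:**
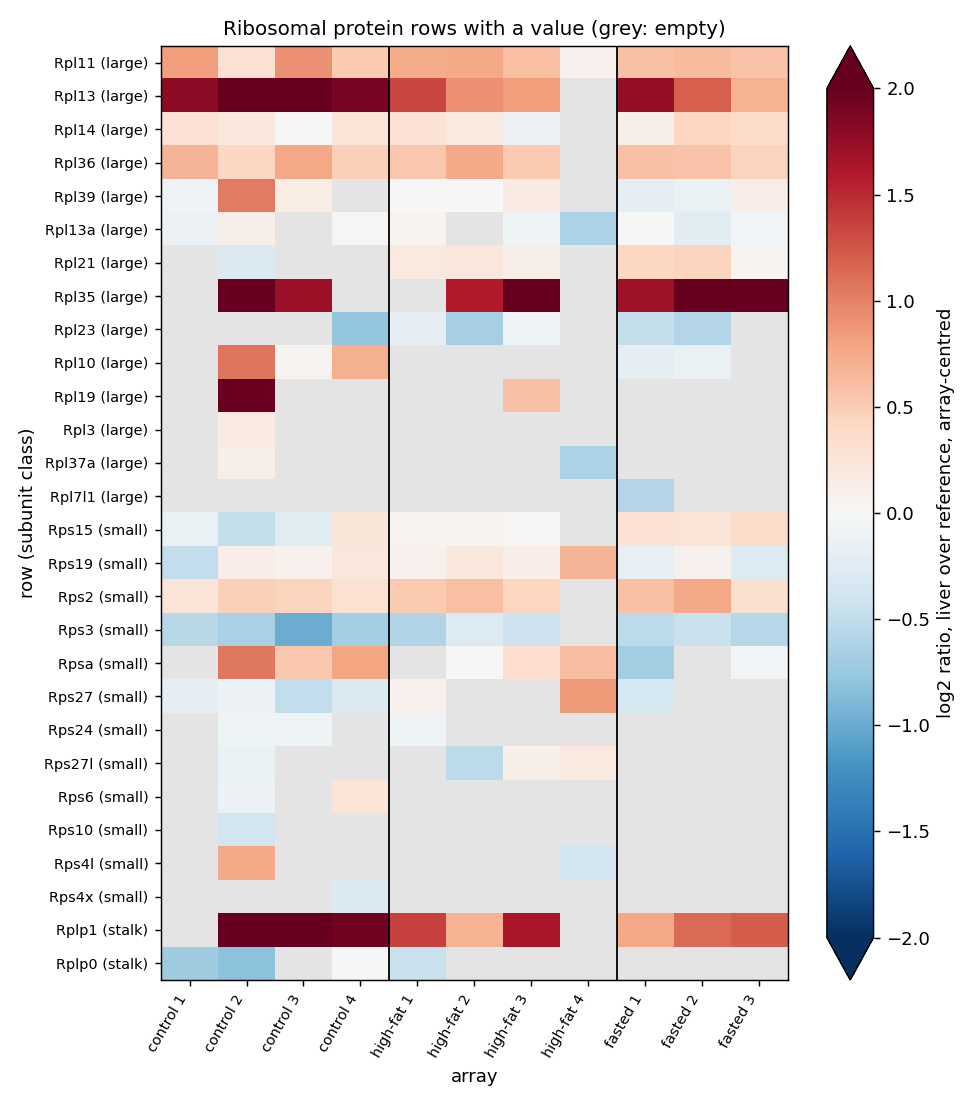
Colour gives the array-centred log2 ratio of liver over reference for each ribosomal protein row (vertical axis) with a value on any of the 10 arrays used, on each of the 11 arrays (horizontal axis); grey cells are empty and colours stop at -2 and 2. Rows such as Rpl13, Rplp1 and Rpl35 are high on every array that measured them, while many rows are filled on only a few arrays, and control 2 holds the most values (25).

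Among the large subunit genes, the control arrays were separate from the others in Rpl13 alone of the 7 tested. Rpl13, a structural protein of the large subunit, had log2 ratios of 1.79, 3.39, 2.15 and 1.90 in control mice 1 to 4, 1.34, 0.92 and 0.84 in high-fat mice 1 to 3, and 1.75, 1.20 and 0.70 in fasted mice 1 to 3. All 4 control values lay above all values of the other 2 groups, although control 1 and fasted 1 differed by only 0.04. Rpl35, which sits beside the exit tunnel, was measured at 3.52 and 1.72 in control mice 2 and 3, 1.59 and 3.08 in high-fat mice 2 and 3, and 1.69, 2.60 and 2.03 in the fasted mice. Its groups overlapped across their whole range. Rpl39, a small protein that lines the exit tunnel, had values of -0.08, 1.04 and 0.15 in control mice 1 to 3, 0.00, 0.01 and 0.17 in the high-fat mice, and -0.18, -0.14 and 0.13 in the fasted mice. Only control 2 stood apart from the others.

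The remaining large subunit rows varied less. Rpl11, which with Rpl5 and the 5S RNA can bind and inhibit Mdm2, had log2 ratios of 0.84, 0.29, 0.92 and 0.53 in the control mice, 0.74, 0.76 and 0.60 in the high-fat mice and 0.58, 0.64 and 0.57 in the fasted mice. The control values enclosed those of both other groups. Rpl36 ran from 0.42 to 0.77 in the control mice, from 0.53 to 0.76 in the high-fat mice and from 0.44 to 0.58 in the fasted mice. Rpl14 ran from 0.01 to 0.29 in the control, from -0.12 to 0.29 in the high-fat and from 0.11 to 0.43 in the fasted mice, and Rpl13a stayed between -0.23 and 0.11 on all 8 arrays that measured it. In none of these 4 genes were the groups separate.

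In the small subunit, Rpsa and Rps15 had group means in opposite orders. Rpsa, a small subunit protein also known as the laminin receptor, was measured at 1.05, 0.54 and 0.79 in control mice 2 to 4, 0.00 and 0.34 in high-fat mice 2 and 3, and -0.68 and -0.06 in fasted mice 1 and 3. The 3 groups did not overlap, but 3 of the 10 arrays had no value. Rps15, which lies in the head of the subunit near the decoding site, had values of -0.14, -0.48, -0.24 and 0.24 in the control mice, 0.05, 0.06 and 0.03 in the high-fat mice and 0.29, 0.25 and 0.38 in the fasted mice. All fasted values lay above all high-fat and control values, and the high-fat values lay within the control range.

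Rps3, at the entry of the mRNA channel, had log2 ratios of -0.55, -0.65, -0.99 and -0.68 in the control mice, -0.60, -0.28 and -0.42 in the high-fat mice and -0.52, -0.44 and -0.57 in the fasted mice. It was below the array median on all 10 arrays, and control 3 was lowest. Rps2, another protein of the mRNA entry, had values of 0.25, 0.47, 0.45 and 0.31 in the control, 0.52, 0.60 and 0.43 in the high-fat and 0.58, 0.75 and 0.32 in the fasted mice. Rps19, the gene most often mutated in Diamond-Blackfan anaemia, had values of -0.50, 0.14, 0.09 and 0.23 in the control, 0.08, 0.21 and 0.14 in the high-fat and -0.17, 0.09 and -0.27 in the fasted mice. The groups overlapped in all 3 genes, and for Rps19 control 1 was the lowest of the 10 arrays.

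Rplp1, an acidic stalk protein that helps to recruit elongation factors, was the only stalk gene with enough values. Its log2 ratios were 2.93, 2.37 and 1.93 in control mice 2 to 4, 1.36, 0.70 and 1.63 in high-fat mice 1 to 3, and 0.78, 1.13 and 1.21 in fasted mice 1 to 3. All control values were above all others, while high-fat and fasted values overlapped. Rplp0, the stalk protein that anchors Rplp1 and Rplp2, had only -0.71, -0.82 and 0.01 in control mice 1, 2 and 4 and -0.44 in high-fat mouse 1.

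**Figure D2:**
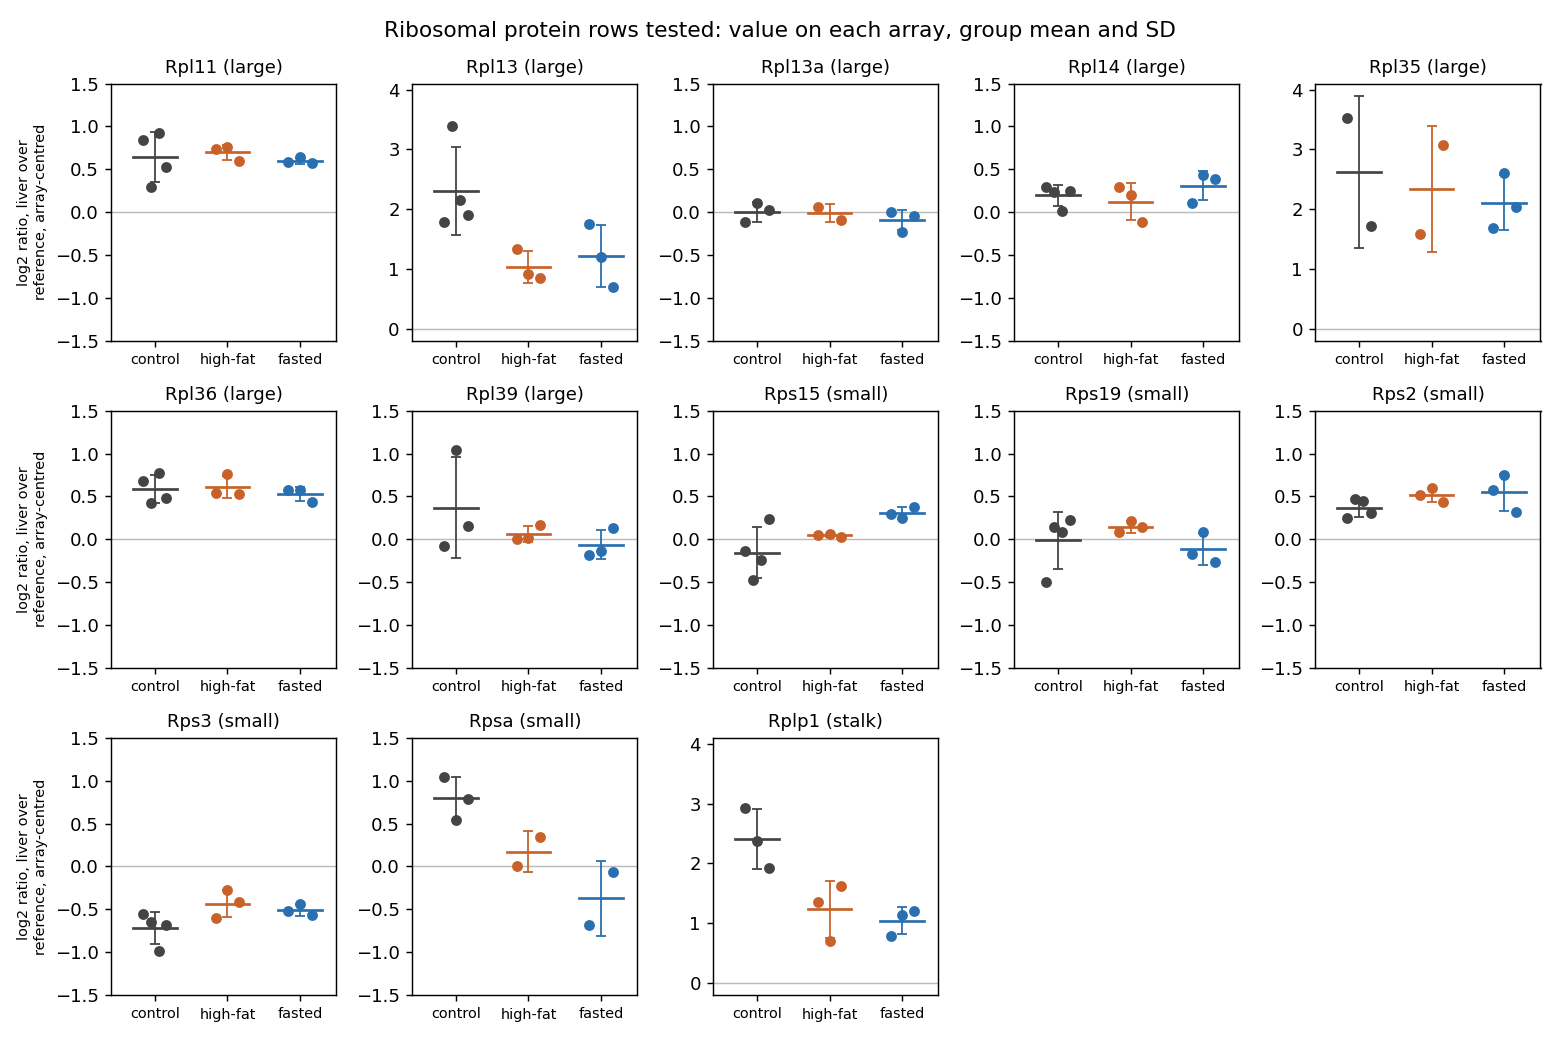
Each panel shows 1 tested ribosomal protein row, with a point per array (vertical axis, array-centred log2 ratio of liver over reference), the group mean as a line and the SD as a bar for control, high-fat (arrays 1 to 3) and fasted mice; Rpl13, Rpl35 and Rplp1 have a taller axis. Control points stand above the others for Rpl13, Rpsa and Rplp1, and fasted points stand highest for Rps15.

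A few of the rows with too few values still had some in 2 or 3 groups. Rpl10 was measured at 1.07, 0.05 and 0.71 in control mice 2 to 4 and at -0.18 and -0.13 in fasted mice 1 and 2, with no high-fat value. Rpl21 had -0.29 in control 2, 0.19, 0.22 and 0.12 in the high-fat mice and 0.42, 0.45 and 0.06 in the fasted mice. Rps27 had -0.20, -0.12, -0.50 and -0.29 in the control mice, 0.08 in high-fat mouse 1 and -0.35 in fasted mouse 1. Rpl10 was not tested. When 1 value in each group was enough, Rpl21, Rpl23 and Rps27 could be tested as well, and none passed in any comparison (limma, smallest adjusted p = 0.179, for Rpl21 in fasted against control livers with a change of 0.60 that rests on 1 control value).

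The first comparison addresses what the high-fat diet changed against chow. Of the 13 tested ribosomal protein genes 1 fell and 0 rose: Rplp1 was 2.27-fold lower in high-fat livers, from a log2 ratio of 2.41 ± 0.50 (SD, n = 3) to 1.23 ± 0.48 (n = 3). Large subunit genes had 0 calls among 7 and small subunit genes 0 among 5. Over all 3606 rows tested, 5.27% were called (190 rows), 3.16% as higher and 2.11% as lower, so 1 of 13 is close to what the whole table gave. The median change was -0.02 over the 13 genes, -0.07 over the large subunit and 0.15 over the small, against 0.08 over all rows.

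Rplp1 fell by 1.18 ± 0.28 (SE) on the log2 scale, with a 95% interval of -1.79 to -0.57 (limma, two-sided, Benjamini-Hochberg adjusted p = 0.039 over 3606 rows). Rpl13 had a change of -1.27 ± 0.35 (interval -2.04 to -0.51, adjusted p = 0.0546 by limma) and Rpsa one of -0.62 ± 0.23 (-1.15 to -0.10, adjusted p = 0.138), neither past the threshold. These 3 were the members whose groups did not overlap (23.1%), all with lower high-fat values, against 25.9% of all rows (16.8% higher and 9.1% lower). They were also the 3 members with an unadjusted p under 0.05, against 25.5% of all rows.

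The other 10 tested genes changed by less than 0.5 on the log2 scale, with adjusted p between 0.214 and 0.944 (limma). The largest values among them were 0.28 for Rps3 (interval -0.01 to 0.58), -0.31 for Rpl39 (-0.85 to 0.23) and -0.29 for Rpl35 (-1.66 to 1.09). Rps15, Rps19 and Rps2 had changes of 0.20, 0.15 and 0.15, with intervals from -0.13 to 0.54, -0.22 to 0.53 and -0.14 to 0.43. For Rpl35 the interval still allows more than a 2-fold fall or rise, and for Rpl36, the narrowest, it ran from -0.26 to 0.30.

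The call of Rplp1 was lost on leaving out control 2 (adjusted p = 0.0674), control 3 (0.0688), high-fat 1 (0.0585), high-fat 2 (0.122), high-fat 3 (0.0504) or fasted 2 (0.0545), by limma in each case. High-fat arrays 1 to 3 had a narrower spread over all rows (median absolute deviation 0.26 to 0.39) than control arrays (0.43 to 0.52) or fasted arrays (0.44 to 0.49). With arrays scaled to 1 spread the change of Rplp1 was -0.51 (limma adjusted p = 0.404) and that of Rpl13 -0.68 (0.312). For fasted against control livers the same scaling gave -1.17 for Rplp1 (limma adjusted p = 0.0994) and -0.96 for Rpl13 (0.212). The part of the spread in these changes was not tested. Hepatocyte markers moved the same way. The mean of the 9 markers filled on all arrays was 1.87 to 3.06 in control, 1.35 to 1.69 in high-fat and 1.42 to 1.54 in fasted mice. All 10 tested markers had lower means in high-fat than in control livers, against 1425 of all 3606 rows. Over all rows 2.11% were called lower, and 2 of these markers fell (Cyp3a11 and Apoa1). Their part in the change of Rplp1 was not tested, and in bulk liver fewer cells of a type and less RNA per cell cannot be told apart.

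The comparison of fasted with high-fat livers addresses what the 48 h fast changed in mice already on the diet. No ribosomal protein gene was called among the 13 (limma, adjusted p between 0.363 and 0.936), and 0 had an unadjusted p under 0.05, against 0.333% called (0.0555% higher, 0.277% lower) and 14.9% with such a p over all rows. The median change was -0.08, against -0.05 over all rows. In 2 members (15.4%) the groups did not overlap, Rps15 higher and Rpsa lower, against 29% of all rows (11.2% higher and 17.9% lower).

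Rpsa had the lowest change, -0.54 (interval -1.12 to 0.04, adjusted p = 0.363 by limma), from 0.17 ± 0.24 (SD, n = 2) to -0.37 ± 0.44 (n = 2). Rps15 had the highest, 0.26 (-0.10 to 0.62, adjusted p = 0.465), from 0.05 ± 0.02 (n = 3) to 0.31 ± 0.07 (n = 3). Rps19 stood at -0.26 (-0.66 to 0.14), Rplp1 at -0.19 (-0.80 to 0.42), and Rpl14 and Rpl13 at 0.19 and 0.18. For Rpl13 the interval ran from -0.63 to 1.00. Rpl35, at -0.23, had the widest, from -1.48 to 1.03.

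**Figure D3:**
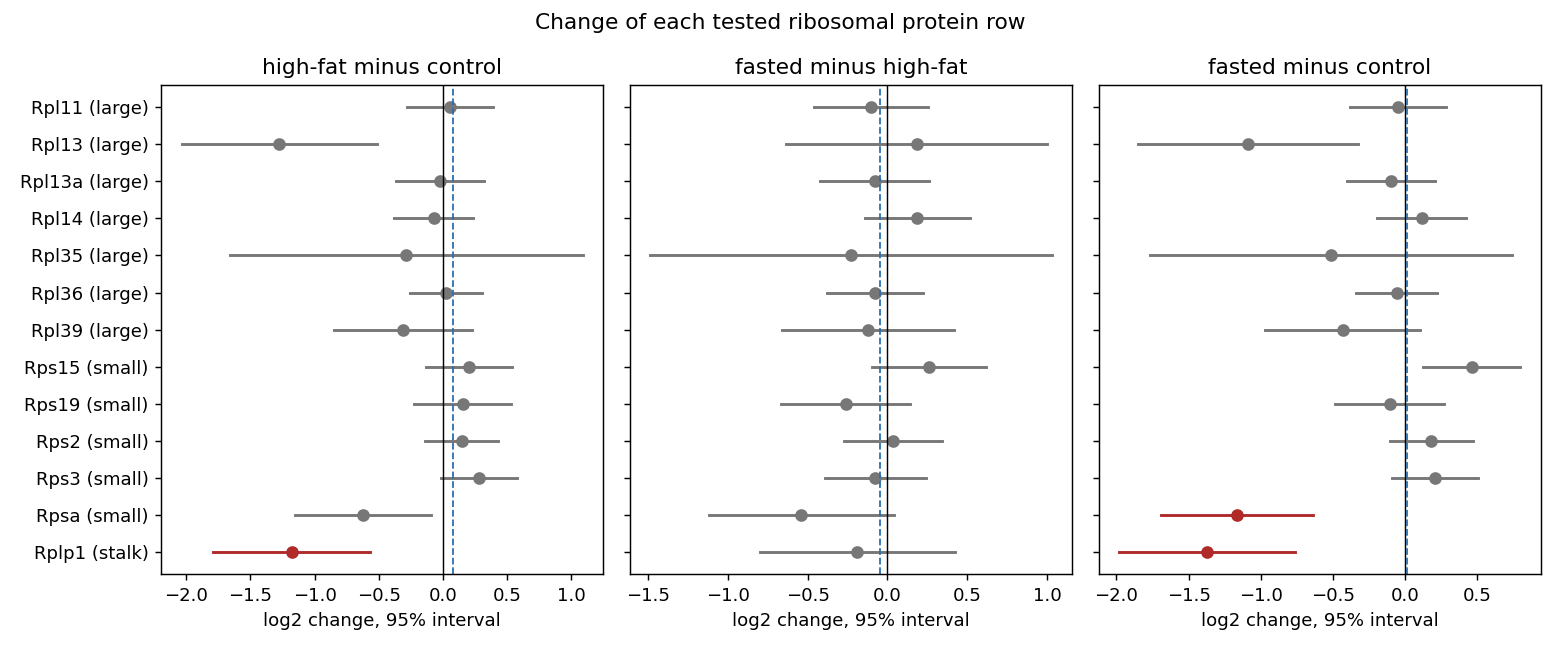
Points show the log2 change of each tested ribosomal protein gene in the 3 comparisons with its 95% interval (horizontal axis), red where the limma adjusted p is under 0.05; the dashed line is the median over all 3606 rows. Rplp1 is red against chow in both diet groups, Rpsa only in fasted livers, and no gene is red for fasted against high-fat livers.

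Fasted livers were then set against chow controls, which joins diet and fast and shares its arrays with the first 2 comparisons. Of the 13 genes 2 fell and 0 rose: Rplp1 was 2.58-fold lower and Rpsa 2.24-fold lower. Of all rows, 3.83% were called, 2.55% as higher and 1.28% as lower. The median change was -0.10 over the 13 genes, -0.10 over the large and 0.18 over the small subunit, against 0.01 over all rows. In 4 members (30.8%) the groups did not overlap, 3 lower (Rplp1, Rpsa and Rpl13) and 1 higher (Rps15), against 22.5% of all rows (9.96% lower and 12.6% higher), and the same 4 had an unadjusted p under 0.05, against 20.7%.

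Rplp1 fell by 1.37 ± 0.28 (SE) on the log2 scale (interval -1.98 to -0.76, limma adjusted p = 0.0268), to a mean of 1.04 ± 0.23 (SD, n = 3). Rpsa fell by 1.16 ± 0.23 (interval -1.69 to -0.64, limma adjusted p = 0.0326), from 0.79 ± 0.26 (SD, n = 3) to -0.37 ± 0.44 (n = 2). Rpl13 had a change of -1.09 (-1.85 to -0.33, adjusted p = 0.108) and Rps15 one of 0.46 (0.13 to 0.80, adjusted p = 0.122), both short of the threshold. Rpl35 and Rpl39 stood at -0.51 (-1.77 to 0.74) and -0.43 (-0.97 to 0.10), Rps3 and Rps2 at 0.21 and 0.18. The fall of Rpsa against chow was tested as 1 step, and neither of its parts, diet or fast, was called on its own.

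Rplp1 lost its call in fasted livers without control 3 (limma adjusted p = 0.0601), fasted 1 (0.0877) or fasted 2 (0.091), and Rpsa without control 2 (0.0524) or control 4 (0.0536). Fasted 2 held no Rpsa value, and without this array the limma adjusted p of Rpsa was 0.0782 although its own values were the same. Rpsa could not be tested without high-fat 2, high-fat 3, fasted 1 or fasted 3, since a group then held 1 value, and over all rows 0 calls were left without fasted 2 and 6 without fasted 1, of 138. Rps15 was called without control 4, as higher (adjusted p = 0.0271), and Rpl13 was called for high-fat against control livers without control 2 (0.047). Of the 10 tested hepatocyte markers Ttr and Cyp3a11 fell in this comparison, against 1.28% of all rows called lower. The median of the 10 was -0.69, and the part of this in the change of Rplp1 and Rpsa was not tested.

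**Figure D4:**
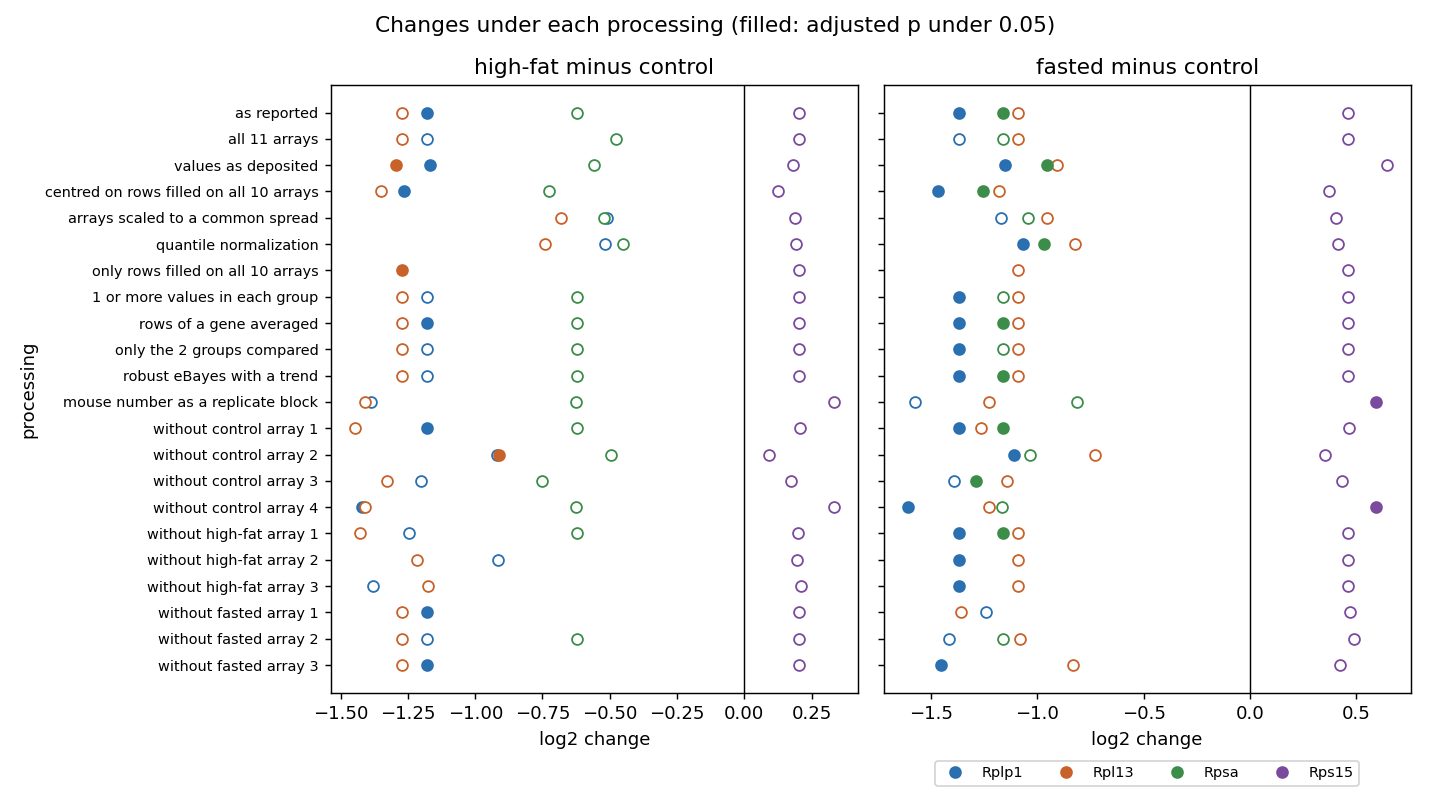
Each line is 1 way of processing the data (vertical axis) and each point the log2 change of Rplp1, Rpl13, Rpsa or Rps15 for high-fat minus control (left) and fasted minus control (right), filled where the limma adjusted p is under 0.05. The 4 genes keep their direction on every line, while filled points come and go, and the changes of Rplp1 and Rpl13 in high-fat livers are smaller when arrays are scaled or quantile normalised.

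The ribosomal protein genes did not move as 1 block across arrays. Averaged over the 8 genes with a value on all 10 arrays, the log2 ratio was 0.40 ± 0.06 (SD, n = 4) in control, 0.34 ± 0.08 (n = 3) in high-fat and 0.36 ± 0.10 (n = 3) in fasted livers, and the arrays of the groups overlapped (0.33 to 0.48, 0.25 to 0.40 and 0.245 to 0.44). Across the 10 arrays, which share a reference RNA and their array centring, the 28 pairs of these 8 genes had a median Pearson r of -0.05, from -0.74 (Rpl13 with Rps15) to 0.85 (Rpl11 with Rpl36), and 11 pairs were positive. These correlations mix differences between groups with those between mice, and are given as a description. Of 2013 other rows filled on the same 10 arrays, those most like the mean of the 8 were Ctu2 (r = 0.85), Ptms (0.83), Map3k5 (0.80), Prima1 (0.77) and Tdp1 (0.77). Their Spearman rank correlations were 0.92, 0.84, 0.80, 0.61 and 0.65. These rows were picked as the highest of 2013 over only 10 arrays, and whether they are linked to the ribosomal protein genes was not tested.

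The spread in these genes was widest in control livers. The median SD over the 13 genes was 0.29 in control, 0.13 in high-fat and 0.17 in fasted livers, against 0.22, 0.16 and 0.15 over all rows. Control 2 lay above the mean of the other controls with a value by 1.80 in Rpl35 (control 3 alone) and 1.44 in Rpl13. It lay above that mean by 1.01 in Rpl39 (controls 1 and 3) and 0.78 in Rplp1 (controls 3 and 4). In Rpl11, Rps15 and Rpl36 it lay below that mean, with differences of -0.47, -0.43 and -0.22. The median difference over the 13 genes was 0.155, against -0.045 over all rows. In 4 of 13 genes (30.8%) control 2 lay over 0.5 above that mean, against 10.7% of all rows. It also had the highest hepatocyte marker mean (3.06), and whether the 2 are linked was not tested.

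Fau, which encodes a small subunit protein fused to a ubiquitin-like protein, and Btf3, a subunit of the complex that meets new peptides at the ribosome, did not pass the test in any comparison. Fau had changes of -0.02, -0.20 and -0.22 (in the order of the 3 comparisons above), and Btf3 of 0.36, -0.46 and -0.10. A list of other transcripts with a 5′ terminal oligopyrimidine tract had 8 tested genes, among them Fau, Btf3 and the elongation factors Eef1d, Eef1g and Eef2, and 0 were called in any of the 3 comparisons, with medians of 0.11, -0.15 and -0.03. In this list Hnrnpa1, an RNA-binding protein, had a high-fat minus control change of 0.31 (adjusted p = 0.305 by limma) and Nap1l1, a histone chaperone, one of 0.17 (0.393).

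A list of initiation factors, which includes the kinase gene Eif2ak4, had 12 tested rows of 8 genes. In high-fat against control livers 1 rose, Eif2ak4, and 5 fell, against 3.16% higher and 2.11% lower over all rows. All 5 falls were spots of 1 gene, Eif4a2, an RNA helicase of the cap-binding complex. The array has 17 Eif4a2 rows, of which 11 held a value and only these 5 could be tested. Over these 5 spots the log2 ratios ran from 1.22 to 2.87 in control, from -0.16 to 0.80 in high-fat and from 0.66 to 1.36 in fasted livers. In these spots high-fat values lay below every control value, and the fasted mean of each spot lay between its high-fat and control means. Among the untested rows of the gene, 1 held -0.17 in control 4, and the control values of the others ran from 0.90 to 2.14.

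Eif4a2 fell by 1.25 to 1.55 on the log2 scale in high-fat against control livers (limma adjusted p between 0.00127 and 0.0246), and 4 of the 5 spots fell in fasted against control livers. Between fasted and high-fat livers the 5 spots had changes of 0.41 to 0.61, none past the threshold (smallest adjusted p = 0.0947). Spots of 1 gene are not replicates of a condition. Eif2ak4, the kinase Gcn2 that senses uncharged tRNA, had log2 ratios of -1.63, -1.28, -1.15 and -1.66 in the control, -0.74, 0.07 and -0.36 in the high-fat and -1.33, -0.91 and -1.13 in the fasted mice. All its high-fat values lay above all others, and it rose by 1.09 ± 0.20 (SE) in high-fat against control livers (limma adjusted p = 0.0145). In fasted against control livers Eif6, which keeps the large subunit from joining the small, rose by 0.64 (0.0268), and Eif2b1, a subunit of the exchange factor of eIF2, fell by 0.75 (0.0297).

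**Figure D5:**
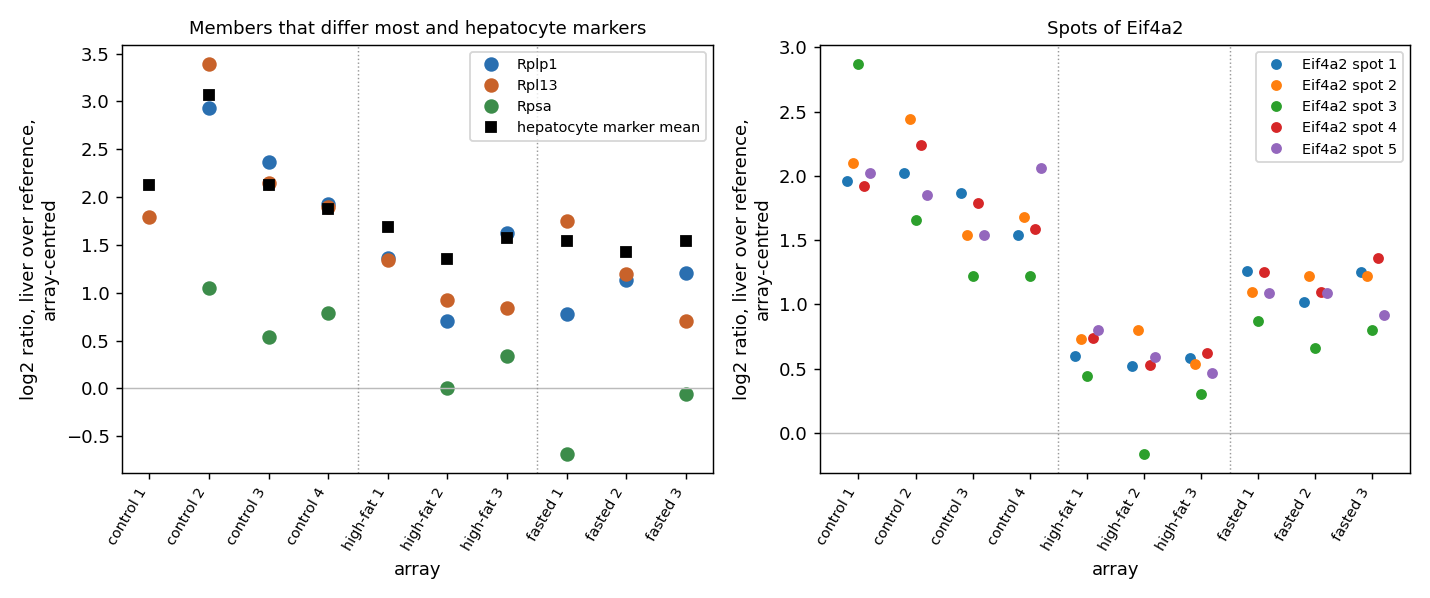
Left, array-centred log2 ratios (vertical axis) of Rplp1, Rpl13 and Rpsa and the mean of the 9 hepatocyte markers filled on every array, on each of the 10 arrays; right, the 5 tested Eif4a2 spots on the same arrays. Control 2 is highest for Rpl13, Rplp1 and the marker mean, and the Eif4a2 spots are lowest in high-fat livers, from -0.16 to 0.80.

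The 3 tested elongation factors did not pass the test in any comparison: Eef2, which moves the ribosome along the mRNA, had changes of -0.04, 0.09 and 0.04, and Eef1g and Eef1d, subunits of the elongation factor that loads tRNA, lay between -0.21 and 0.04. None of 5 tested genes of mTORC1 and the ribosomal S6 kinases was called. The kinase gene Rps6kb2 had a high-fat minus control change of -0.21 (limma adjusted p = 0.276), and Sesn3, an inhibitor of mTORC1, a fasted minus high-fat change of -0.37 (0.276). The 1 tested tRNA synthetase, Sars, had changes of 0.30, -0.21 and 0.09.

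Among 9 tested genes of ribosome biogenesis and RNA polymerase I, 1 was called, in fasted against control livers, where 3.83% of all rows were. Taf1c, a subunit of the factor that places RNA polymerase I on ribosomal DNA, had log2 ratios of 0.46, 0.43, 0.29 and 0.27 in the control, 0.11, -0.04 and 0.03 in the high-fat and -0.35, -0.18 and -0.39 in the fasted mice. The 3 groups did not overlap, and Taf1c fell by 0.67 ± 0.12 (SE) in fasted against control livers (limma adjusted p = 0.0198). Surf6 and Rrp9, nucleolar factors of pre-rRNA processing, had changes of 0.51 (0.108) and 0.98 (0.16) in that comparison.

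Mitochondrial ribosomal proteins, which build the separate ribosome of that organelle, had 21 tested genes. In high-fat against control livers 1 rose, Mrpl21 (by 0.64, limma adjusted p = 0.0413), and in fasted against control livers 1 rose, Mrpl19 (by 0.68, 0.0478). These counts are close to the shares of all rows called, 5.27% and 3.83%. The median changes of the 21 genes were 0.15, -0.12 and -0.03, beside -0.02, -0.08 and -0.10 for the cytosolic ribosomal proteins. The difference between these lists was not tested.

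Markers of other liver cells were sparse: 13 of 44 on the array could be tested. Cd52 of lymphocytes rose by 0.47 in high-fat against control livers (limma adjusted p = 0.0456), and Kdr of endothelial cells rose by 0.90 in fasted against control livers (0.0192). Of the 4 tested lymphocyte and neutrophil markers 2 had higher means in high-fat than in control livers, Cd52 and S100a9. Cd3e changed by -0.17 (limma adjusted p = 0.607), and Ptprc had means of -1.55 in control and -1.61 in high-fat livers. Both red cell markers on the array had no value on the 10 arrays.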

How the data were processed

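Liver RNA (Cy5) and a universal mouse reference RNA (Cy3) were labelled during oligo-dT-primed reverse transcription and read on 1 array per mouse, per the labels. Per spot, the authors deposited the log ratio of liver over reference, taken as log2. For the base of the logarithm, hybridisation, scanner, background correction, normalisation and the rule for empty cells, a description is not given in the sources used here. Each sample column was mapped by its label, and 0 were unmapped.

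Symbols are those of the array platform's annotation, where 14718 rows have 1 symbol, 1 several and 2561 none. The gene identifiers of 63 of the 80 ribosomal protein rows matched the current gene table, with 0 symbols changed. The others were the 17 Rpl5 rows, whose gene therefore rests on the platform's symbol alone. The rows pair with no build, so no coordinates are given for them.

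High-fat array 4 was left out. Each of the other 10 arrays was centred on its median. The 3606 rows with at least 2 values in each group (2266 with a value on all 10 arrays) entered a model in limma 3.58.1 (R 4.3.3; 1 mean per group, empirical Bayes with 5.09 prior degrees of freedom), and 3 two-sided contrasts were taken. P-values were adjusted over all rows by Benjamini-Hochberg, with calls at an adjusted p under 0.05, and intervals are at 95%. Rows, not gene averages, are the unit. The script was tested on simulated data with the same empty cells.

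The members, gene lists and tests were chosen with earlier results of these data known. Named were all members called in a comparison, tested stalk genes, the 4 highest and 4 lowest changes per comparison and, of each list, the called genes or up to 3 with the smallest p. The other tested members and the untested ones were added after their values were seen. Alternatives were other centring, scaling and filters, all 11 arrays, 2-group fits, a robust trend, the mouse number as a block and leaving out each array. The numbers of mice are labels of separate animals: same-numbered arrays had correlations of deviations from -0.16 to 0.19, so they were not treated as pairs.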

Additional observations from a re-analysis of the deposited data

How the results depend on the processing

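The counts of ribosomal protein genes called (1 for high-fat minus control, 0 for fasted minus high-fat, 2 for fasted minus control, limma) were taken under 21 alternatives. For high-fat minus control the count was 0 with all 11 arrays, with arrays scaled to a common spread, with quantile normalisation, with 1 or more values in each group, with only the 2 groups, with a robust trend and with the mouse number as a replicate block, and 2 with the values as deposited (Rplp1 and Rpl13). It was 0 to 1 on leaving out each array in turn. For fasted minus high-fat it was 0 under all 21. For fasted minus control the count was 0 with all 11 arrays, with scaled arrays and with only rows filled on all 10 arrays (a filter that removes Rplp1 and Rpsa), 1 with 1 or more values in each group and with only the 2 groups, and 0 to 2 on leaving out each array. With the replicate block it was 1 and in the other direction, since Rps15 rose (adjusted p = 0.0467) and Rplp1 missed the threshold (0.0591); the cause was not tested, and each array matched best with its own number in 7 of 18 checks. The median change of the 13 genes was -0.02, -0.08 and -0.10 as reported. With the values as deposited it was 0.12 for fasted livers against either other group, where the median of all rows was 0.16 and 0.21. It was -0.27 for fasted minus high-fat with scaled arrays and 0.14 for high-fat minus control with quantile normalisation, and leaving out each array gave -0.06 to 0.08, -0.12 to -0.01 and -0.16 to -0.03. The cause of these shifts was not tested. Over all rows tested the calls were 190, 12 and 138 as reported, 124 in the first and 38 in the last comparison with all 11 arrays, and 33 in the first without high-fat 2. Rplp1, Rpl13, Rpsa and Rps15 kept their direction in the comparisons with control under every alternative that could test them. Over the same alternatives Rplp1 was called in 7 of 20 for high-fat minus control (adjusted p 0.0237 to 0.404) and in 14 of 20 for fasted minus control (0.0199 to 0.0994), Rpsa in 8 of 16 for fasted minus control (0.0207 to 0.272), and Rpl13 in 3 of 21 for high-fat minus control (0.0296 to 0.312). These counts include leaving out arrays that held no value of the gene, which leaves its own values as they are. Such arrays are control 1 for Rplp1, and control 1, high-fat 1 and fasted 2 for Rpsa. Of the other genes named, Cd52 was called in 2 of 20, Mrpl21 in 5 of 19, Mrpl19 in 5 of 20, Apoa1 in 6 of 20, Eif2b1 in 9 of 19, Eif6 in 15 of 20, Ttr in 16 of 20, Kdr and Taf1c in 17 of 20 and Eif2ak4 in 18 of 20. Cyp3a11 was called in 17 of 20 for high-fat minus control and 13 of 20 for fasted minus control. The 5 Eif4a2 spots were called in 15 to 20 of 20 for high-fat minus control, and the 4 called for fasted minus control in 16, 11, 6 and 4 of 20.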

Other observations

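High-fat array 4 held a value for 21 of the 80 ribosomal protein rows, and 13 of these rows were empty on the other 10 arrays. This array had a Pearson r between -0.03 and 0.01 with each of the other arrays. Whether its rows hold the genes listed for them was not tested. The values below are given under those row labels and are not read as liver levels of the genes. The centred log2 ratios of the array over the 21 rows ran from -0.70 to 1.36, with Rpl28 at 1.36 and Rpl30 at 1.30. Of the 17 Rpl5 rows 5 had a value there, from -0.70 to -0.02. Only 4 tested members had a value on it: Rps19 at 0.68, Rpl13a at -0.64, Rpl11 at 0.09 and Rpsa at 0.61. All 4 values lie outside the range of the same gene on high-fat arrays 1 to 3.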
